A study of Mus musculus with 12 samples.

Results

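In villi of the mouse small intestine, 6599 H3K27me3 peaks away from gene starts had no counterpart in crypts. They were chosen from the called peaks alone: a peak of the villi H3K27me3 list was taken when it was under 10 kb wide, did not share 1 bp with a crypts H3K27me3 peak and lay more than 1 kb from every protein-coding start site (GENCODE M21, on GRCm38). The members made up 47.8% of the 13797 H3K27me3 peaks of villi and covered 8.74 of their 35.6 Mb. The crypts list was shorter, with 7611 peaks, and when as many of the top-scoring villi peaks were taken, 1894 members were left. Of all villi peaks, 7670 (55.6%) had no crypts peak over them, and of these 1070 lay within 1 kb of a coding start site and 1 of the distal ones was wider than the limit. Because the H3K27me3 calls of both compartments chose the members, the differences in H3K27me3 given here are a description, and nothing was tested with them.

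The study asked whether the histone H3 tail is cut in the mouse small intestine and by which proteases, and reported cutting in the differentiated cells. The libraries used here were made to map H3 modifications across the genome in crypts and villi. Villi were scraped from the opened small intestine and crypts were then released with EDTA, so each fraction holds several cell types, enterocytes being the most abundant in villi. Chromatin of each fraction was immunoprecipitated for H3K27me3, H3K4me1, H3K4me3, H3K9me2 or H3K9me3 by ChIP-Rx, in which fly chromatin is added as a reference, with 1 library per fraction and modification and no genetic change or treatment. The labels name mouse as the organism and intestinal crypt or villi as the tissue, and strain, age and number of animals for these libraries were not given in the sources used here.

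H3K27me3 is laid down by the Polycomb repressive complex PRC2 and is known for covering CpG islands at the start sites of silent developmental genes, from where it can spread as broad domains. H3K4me1 marks enhancers, which are distal elements that switch on genes in a cell type, and H3K4me3 marks start sites. In the gut epithelium, stem cells at the crypt base divide under Wnt signals and their progeny move onto the villus as absorptive or secretory cells.

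Each fraction and modification rests on 1 library, so nothing separates crypts from villi beyond these libraries and no p-value was computed. Intervals in brackets are 95% Wilson intervals for counting error alone, and peaks that lie side by side do not count as independent. A peak called in villi only cannot tell more cells that carry the mark from more of the mark in each cell, nor intact from cut H3. H3K4me3 within 1 kb of a start site did not tell the fractions apart by their epithelial markers, being called at all 22 enterocyte genes of a marker list in both libraries and at 22 of 22 stem cell genes in crypts and 21 in villi. Of 20 lymphocyte genes, 5 had one in crypts and 11 in villi, and of 27 genes of mesenchyme and muscle 6 and 9 did, so the villi fraction carried H3K4me3 at more start sites of both lists. The same held for 58 developmental transcription factor genes, mostly of the homeobox and T-box families, with 20 in crypts and 27 in villi. The other lists changed little. Of 45 Wnt genes 29 and 27 had one, of 29 Notch and secretory genes 21 and 21, and of 54 neuronal genes 14 and 14. Of 18 Paneth, goblet and tuft cell genes 5 and 6 did, of 39 Hox genes 10 and 11, and of 20 proliferation genes 20 and 20. The share over all coding start sites is not given here.

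The sequences of 5 members and of 1 distal peak shared with crypts are given as examples and do not stand for the whole set. Each is the 300 bases around the middle of the peak on the + strand of GRCm38, with every CpG in capitals. The first is the member with the highest score, followed by those with the highest and the median ratio of observed to expected CpG over the whole peak. The members in Lgr5 and Fzd1 were picked after their values were seen, the first for H3K4me1 in crypts only and the second as a CpG-rich member with H3K4me1 in both fractions. The last is the highest-scoring distal peak found in both fractions.
Scn8a intron, highest score, chr15:100980768-100981067: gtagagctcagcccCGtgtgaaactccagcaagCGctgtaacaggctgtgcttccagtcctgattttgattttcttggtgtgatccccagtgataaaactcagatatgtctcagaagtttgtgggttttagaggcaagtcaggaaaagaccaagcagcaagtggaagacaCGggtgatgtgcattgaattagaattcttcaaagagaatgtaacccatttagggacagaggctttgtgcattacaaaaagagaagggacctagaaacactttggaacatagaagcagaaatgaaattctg
Over CT010467.1, highest CpG ratio, chr17:39847785-39848084: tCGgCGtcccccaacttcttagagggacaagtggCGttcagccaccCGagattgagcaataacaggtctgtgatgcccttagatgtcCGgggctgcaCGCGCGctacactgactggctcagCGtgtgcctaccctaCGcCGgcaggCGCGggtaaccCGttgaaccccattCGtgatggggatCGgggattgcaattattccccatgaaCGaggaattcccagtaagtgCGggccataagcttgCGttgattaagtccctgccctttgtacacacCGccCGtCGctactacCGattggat
Ikzf3 intron, median CpG ratio, chr11:98534139-98534438: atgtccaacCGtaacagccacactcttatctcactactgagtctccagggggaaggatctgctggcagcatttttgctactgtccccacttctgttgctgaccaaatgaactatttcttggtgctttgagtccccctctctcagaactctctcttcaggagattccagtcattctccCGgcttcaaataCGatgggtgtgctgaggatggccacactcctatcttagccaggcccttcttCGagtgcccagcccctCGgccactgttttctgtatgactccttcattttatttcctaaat
Lgr5 intron, H3K4me1 in crypts only, chr10:115483743-115484042: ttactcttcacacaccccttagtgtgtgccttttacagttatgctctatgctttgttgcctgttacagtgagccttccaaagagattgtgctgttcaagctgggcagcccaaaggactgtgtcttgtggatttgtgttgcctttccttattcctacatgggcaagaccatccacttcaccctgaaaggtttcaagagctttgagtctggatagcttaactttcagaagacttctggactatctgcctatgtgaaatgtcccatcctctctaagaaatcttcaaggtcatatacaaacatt
Fzd1 exon, H3K4me1 in both, chr5:4756207-4756506: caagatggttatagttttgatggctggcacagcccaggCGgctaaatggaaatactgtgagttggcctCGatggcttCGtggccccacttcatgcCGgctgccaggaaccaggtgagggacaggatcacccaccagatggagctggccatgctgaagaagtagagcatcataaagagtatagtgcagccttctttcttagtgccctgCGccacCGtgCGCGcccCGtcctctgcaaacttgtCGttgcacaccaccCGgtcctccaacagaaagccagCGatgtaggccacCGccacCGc
Distal peak shared with crypts, chr17:39844890-39845189: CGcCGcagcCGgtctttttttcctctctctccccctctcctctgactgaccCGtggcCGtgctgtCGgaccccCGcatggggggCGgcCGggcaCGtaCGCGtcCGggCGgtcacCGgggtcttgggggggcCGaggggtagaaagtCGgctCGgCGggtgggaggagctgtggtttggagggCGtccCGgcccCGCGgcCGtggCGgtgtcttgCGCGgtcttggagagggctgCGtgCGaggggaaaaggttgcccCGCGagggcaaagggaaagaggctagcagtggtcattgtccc

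The windows of the Scn8a and Ikzf3 members held 3 and 5 CpGs, and that of the Lgr5 member held 0. The Fzd1 window held 14. The 2 windows with the most CpGs, 23 in a member and 31 in the shared peak, lay side by side on chromosome 17, where the annotation has the ribosomal RNA gene CT010467.1 over the member. This member also lay under an H3K9me3 peak in both fractions, with scores of 611 in crypts and 896 in villi, and had a crypts H3K27me3 peak 512 bp away. Its other marks were H3K4me1 and H3K4me3 in villi only, at scores of 11.6 and 41.9. The member with the highest CpG ratio thus lay over a ribosomal RNA gene. In villi it had H3K27me3, H3K9me3, H3K4me1 and H3K4me3, and in crypts H3K9me3 alone.

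The members were narrow and weakly called. Their median width was 1040 bp, with quartiles of 681 and 1648 bp and a maximum of 8242 bp, whereas the 2929 distal villi peaks that overlapped a crypts peak had a median of 2481 bp. The score of a peak, taken as the −log10 p-value of its call with a minimum of 10 although a corrected p-value is possible, was 12.1 at the median of the members, with quartiles of 10.6 and 13.9 and a maximum of 36.1, against a median of 18.4 for the shared distal peaks. Only 22.3% of the members (21.3 to 23.3%) stood in the upper 50% of the villi list by score, compared with 72.8% of the shared distal peaks. The lists hold no read counts, so depth is unknown, and a higher sensitivity of calling in villi cannot be told apart from more H3K27me3.

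The rule placed some peaks just inside and others just outside. The widest member, with a width of 8242 bp and Reg4 as its closest coding gene, compares with a left-out peak near Nrg2 that was 10258 bp wide. The member closest to a start site lay 1002 bp from that of Kcnip1, and a peak at 1000 bp from that of Thrsp was left out. The smallest gap to a crypts peak was 9 bp, near Mdga2, and peaks near Pou4f2 and Ndrg4 that overlapped a crypts peak by 6 bp were counted as shared.

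The gap to the closest crypts H3K27me3 peak was 10.3 kb at the median, with quartiles of 2.73 and 42.0 kb. It was 1 kb or less for 773 members (11.7%), 10 kb or less for 3271 (49.6%, 48.4 to 50.8%) and over 100 kb for 1001 (15.2%). The 1070 villi-only peaks at start sites were farther away, with a median gap of 40.2 kb and 33.3% within 10 kb (30.5 to 36.2%). Score and width were lower in the members farther from crypts H3K27me3, from a median score of 13.1 and width of 1147 bp at 1 kb or less to 11.5 and 964 bp beyond 100 kb.

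**Figure D1:**
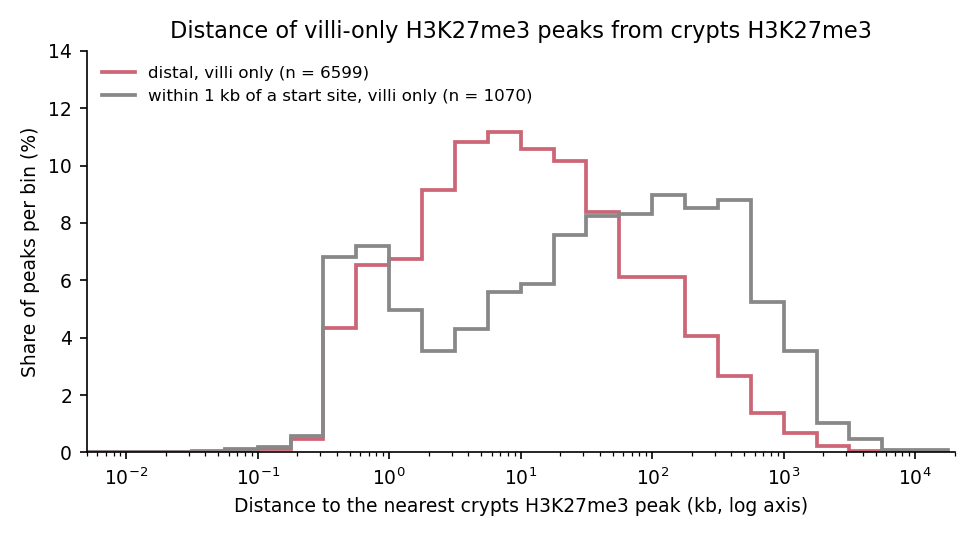
Share of villi-only H3K27me3 peaks (y axis, % per bin) by distance to the nearest crypts H3K27me3 peak (x axis, kb, log axis), for the 6599 distal members (red) and the 1070 peaks within 1 kb of a coding start site (grey). The members lay closer to crypts peaks, with a median of 10.3 kb against 40.2 kb.

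Members also lay next to each other. With members under 10 kb apart joined, they formed 4161 runs, of which 2828 were single peaks and 141 held 5 or more. Runs of at least 2 held 57.1% of the members. Another villi H3K27me3 peak lay within 1 kb of 33.2% of the members, and one shared with crypts within 1 kb of 15.6%. With peaks under 1 kb apart merged, 4833 members were left, so a run need not be a set of separate sites. The largest size was 10 members, reached by 5 runs. The run of 38.8 kb upstream of Clic4, a chloride channel gene, on chromosome 4 had members over 57.2% of its length, no crypts H3K27me3 peak inside, and H3K4me1 on 3 of its members in crypts and on 3 in villi. The run near Lhx2, a LIM homeobox gene of the developing brain and limb, started 23.6 kb from its start site and had 2 crypts peaks inside its span, and that near Foxe1, a forkhead gene of the thyroid, held 1. The run of 50.3 kb on chromosome 8 had its closest start site, that of Thap1, at 326 kb.

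The fifth of these runs stood alone. It covered chr11:111408540-111445495, 37.0 kb in a gene desert between Kcnj2, a potassium channel gene 342 kb away, and Sox9, a transcription factor gene of crypt stem and Paneth cells 1337 kb away. Its 10 members scored between 10.6 and 18.4 and the closest crypts H3K27me3 peak was 1072 kb off. H3K4me1 was called on none of the 10 in crypts and on 1 in villi. Runs of 9 members lay near Krt2, Gjc1 and Adam11, Mdga1, Neurod2, Prok2, Igfn1 and Tmem65, and those at the keratin gene Krt2 and near Neurod2 had no crypts H3K27me3 peak inside.

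The density of members differed between chromosomes. It ranged over the autosomes from 1.34 per Mb on chromosome 14 to 5.58 per Mb on chromosome 11 and was 0.0936 per Mb on chromosome X, where 16 of 77 villi peaks were members (20.8%, against 37.6 to 52.5% on the autosomes). Chromosome 11 also had the highest density of crypts H3K27me3 peaks, 5.39 per Mb, and X the lowest, 0.251 per Mb.

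**Figure D2:**
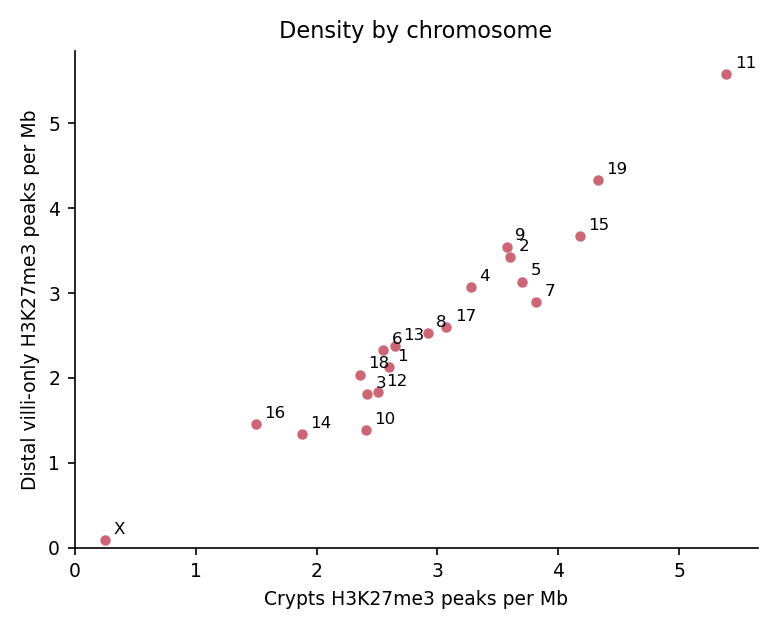
Distal villi-only H3K27me3 peaks per Mb (y axis) against crypts H3K27me3 peaks per Mb (x axis), 1 point per chromosome, labelled by number. Chromosomes 11 and 19 are at the top with 5.58 and 4.33 members per Mb and X is at the bottom with 0.0936.

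The DNA of the members was poor in CpG. The ratio of observed to expected CpG was 0.205 at the median, with quartiles of 0.149 and 0.276, compared with 0.257 for the distal shared peaks, 0.332 for the villi-only peaks at start sites and 0.258 for all villi peaks. The GC content was 48.3% in the members and 48.3% in the distal shared peaks, so that the sets differed in CpG at the same GC content. The order held at equal width: the median ratio was 0.208 in members of 1 to 2 kb and 0.259 in shared distal peaks of that width. Taking a peak as CpG-rich at a GC content of at least 50% and a ratio of at least 0.6, 45 members were (0.682%, 0.510 to 0.911%), against 2.12% of the distal shared (1.66 to 2.70%) and 10.7% of the start-site villi-only peaks (9.03 to 12.8%). Among members in the upper 50% of the villi list by score the share was 1.09% (0.672 to 1.76%).

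The 45 CpG-rich members differed from the members as a whole. H3K4me1 lay on 20 of them in crypts and on 20 in villi, against 5.86 and 5.89% of all members. H3K4me3 lay on 17 in each fraction, against 1.59 and 1.45% of all members. Within 10 kb of a crypts H3K27me3 peak were 9, against 49.6% of all members. With start sites of all annotated transcripts kept out, 28 CpG-rich members were left. The Fzd1 member, over the coding exon of this Wnt receptor gene, lay 1.08 kb from its start site and overlapped H3K4me3 peaks of both fractions. It scored 18.4 with a CpG ratio of 0.711 and the closest crypts H3K27me3 peak 622 kb away. A CpG-rich member 75.3 kb from the start site of Hmga2, a chromatin protein gene of growth, scored 17.4 and carried H3K4me1 and H3K4me3 in both fractions. The CpG-rich member over an exon of B3galt1, a glycosyltransferase gene, scored 25.3 and had neither mark.

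**Figure D3:**
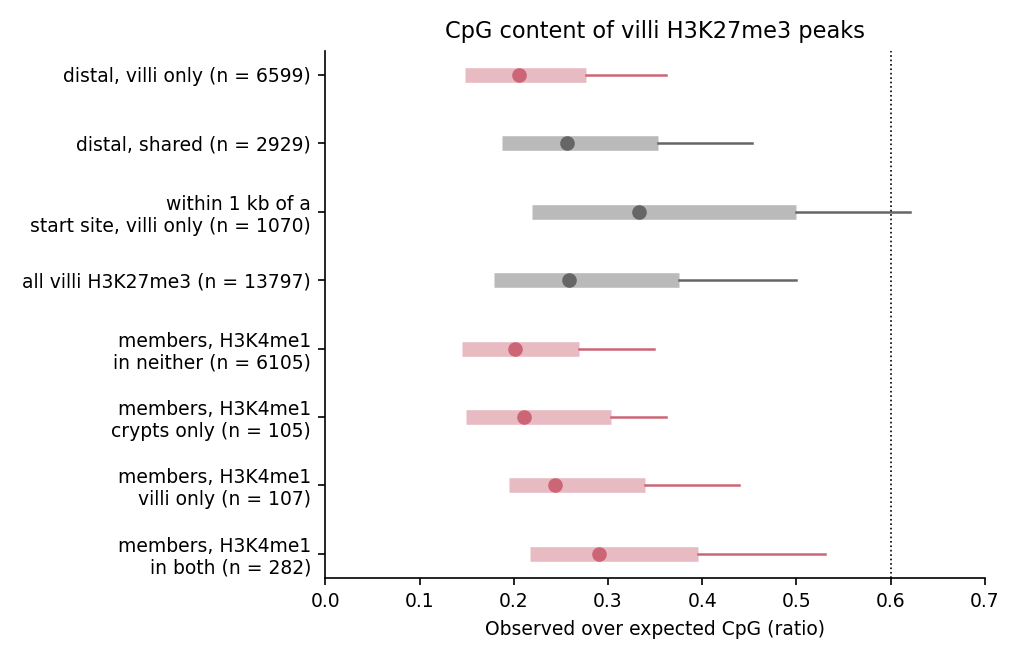
Observed over expected CpG (x axis, ratio) in villi H3K27me3 peaks by set (y axis), with the median as a point, the quartiles as a thick bar and a thin line to the 90th percentile. The dotted line is the limit of 0.6 for CpG-rich peaks. Members are in red, at a median of 0.205 in all and 0.290 where both fractions had H3K4me1.

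Short strings of intestinal transcription factors were searched on both strands of the 300-base windows. The TCF/LEF string ATCAAAG, of the factors that carry the Wnt signal, was in 5.00% of the members and 4.50% of all villi windows. The HNF4 string CAAAGTCCA was in 0.273% and 0.275%, the CDX string TTTATNG in 11.9% and 11.5%, and the GATA string AGATAAG in 3.71% and 3.36%. The letters CAAAG are common to the first 2 strings. The distal shared windows held the CDX string more often, in 14.3% (13.1 to 15.6%, against 11.1 to 12.7% in the members). All villi windows include the members, and a match is a description of the letters, not a site.

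H3K4me1 was called on few members. In crypts 387 carried it (5.86%, 5.32 to 6.46%), where 22.8% of all villi H3K27me3 peaks did, and in villi 389 (5.89%, 5.35 to 6.49%), where 25.1% of all did. Members in the upper 50% of the villi list by score had higher shares, 9.20% in crypts and 9.81% in villi. Among the distal shared peaks the shares were 20.9% (19.4 to 22.4%) and 22.7% (21.3 to 24.3%). Peaks of the same width showed the same order: at 1 to 2 kb, 6.29% of the members (5.37 to 7.35%) and 18.2% of the distal shared peaks (15.6 to 21.1%) had H3K4me1 in crypts. Members of that width were still the weaker calls, with a median score of 12.25 against 15.69. At the middle base of the peak, which does not depend on width, it was 2.76% against 6.52% in crypts and 2.47% against 7.48% in villi. The middle was chosen as a measure after the data were seen. When H3K4me1 had to cover 50% of the peak, the difference was smaller, with 2.38% (2.04 to 2.78%) against 3.76% (3.13 to 4.51%) in crypts and 2.15% (1.83 to 2.53%) against 4.06% (3.41 to 4.84%) in villi. The intervals, which take peaks as independent, did not overlap between members and shared peaks in any of these comparisons, and no test was made.

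**Figure D4:**
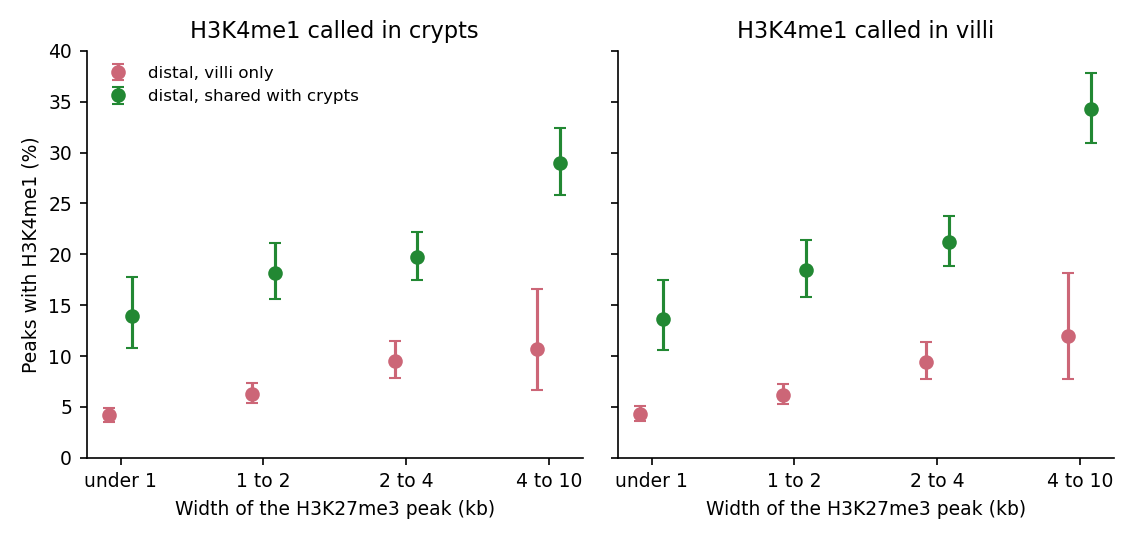
Share of distal villi H3K27me3 peaks with an H3K4me1 peak (y axis, %) in crypts (left) and villi (right) by width of the H3K27me3 peak (x axis, kb), for members (red) and peaks shared with crypts (green). Bars are 95% Wilson intervals, and the members were lower in all 4 width classes of both panels.

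H3K4me1 was in both fractions on 282 members (4.27%, 20.2% of all villi peaks), in crypts only on 105 (1.59%, 2.59% of all villi peaks), in villi only on 107 (1.62%, 4.91% of all) and in neither on 6105 (92.5%, 72.3% of all). The counts with H3K4me1 in 1 fraction only, 105 and 107, were close, and no test was made of them. The CpG ratio differed with the H3K4me1 state, with a median of 0.290 where both fractions had it, 0.244 for villi only, 0.211 for crypts only and 0.202 for neither. The members without H3K4me1 lay 11.3 kb from the closest crypts H3K4me1 peak at the median.

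Where crypts had H3K4me1 on a member, villi kept it on 72.9% (282 of 387, 68.2 to 77.1%), compared with 84.1% of distal shared peaks (81.0 to 86.8%). Counted per H3K4me1 peak, the difference was smaller. Of 348 distal crypts H3K4me1 peaks that touched a member, 280 overlapped an H3K4me1 peak of villi (80.5%, 76.0 to 84.3%) and 68 did not (19.5%, against 19.2% of all 37644 distal crypts H3K4me1 peaks). Of the crypts H3K4me1 peaks that touched a distal shared peak, 86.2% had a villi counterpart (83.2 to 88.8%), which was again above the share at members, with intervals that overlap. The first count asks for H3K4me1 within the member itself and the second only for a villi peak over some base of the crypts one. Of 368 distal villi H3K4me1 peaks at members, 23.1% had no crypts counterpart, against 23.0% of those at distal shared peaks and 20.6% of all. Where 1 crypts and 1 villi H3K4me1 peak matched, those at members were narrower in villi by a median log2 ratio of -0.11 (quartiles -0.40 and 0.13, 266 pairs), and the median over all 26096 distal pairs was -0.01.

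The members with H3K4me1 in crypts only included both a stem cell gene and a Wnt ligand gene. The highest-scoring one, at 26.5, lay 2.96 kb from the start site of Zwint, a kinetochore gene. The next were a member 156 kb from the start of Rapgef5, at 24.5, and one of 5756 bp in the Clic4 run, at 22.6. Others of the 10 highest lay in Tent5c, Ly6g6f and Sptbn4, a spectrin gene, or closest to Plac1 and Gnaq. The crypts H3K4me1 peak covered between 62 and 618 bp of these 10 members, the least at Tent5c, Gnaq and Zwint with 62, 77 and 116 bp, and 5.50 to 53.9% of their width. That near Plac1 also carried H3K4me3 in both fractions.

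Lgr5, which encodes a receptor for R-spondins and marks crypt stem cells, held the fourth of these members. It lay in an intron, chr10:115483399-115484386, with a score of 20.3 and a crypts H3K27me3 peak 714 bp away. The crypts H3K4me1 peak on it, from 115483855 to 115486297, scored 10.9, close to the minimum. Over the whole gene, chr10:115450311-115587780, H3K27me3 covered 5.99% in crypts (6 peaks) and 17.7% in villi (9 peaks), while H3K4me1 covered 8.47% in crypts (7 peaks) and 3.73% in villi (4 peaks). Villi had more of the gene under H3K27me3 and less under H3K4me1. Lgr5 was picked for a member with H3K4me1 in crypts only, so both directions were partly set by the choice. Over the whole lists, H3K27me3 covered 20.3 Mb in crypts and 35.6 Mb in villi, and H3K4me1 100.3 and 101.8 Mb. The other 3 members at Lgr5 were at 13.5, 13.9 and 12.2, the last outside the gene.

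Wnt3, a Wnt ligand that Paneth cells make for the stem cells, held 2 members. One, chr11:103810299-103812076, over a coding exon, scored 19.1 and had H3K4me1 in crypts only and H3K4me3 in both fractions. Its neighbour of 3493 bp, with a score of 21.4, lay 19.5 kb into the gene and had an H3K4me1 peak of 464 bp in villi that crypts lacked. H3K27me3 covered 7.46% of Wnt3 in crypts (2 peaks) and 26.1% in villi (4 peaks). H3K4me1 covered 14.6% of the gene in crypts (5 peaks) and 7.66% in villi (4 peaks).

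**Figure D5:**
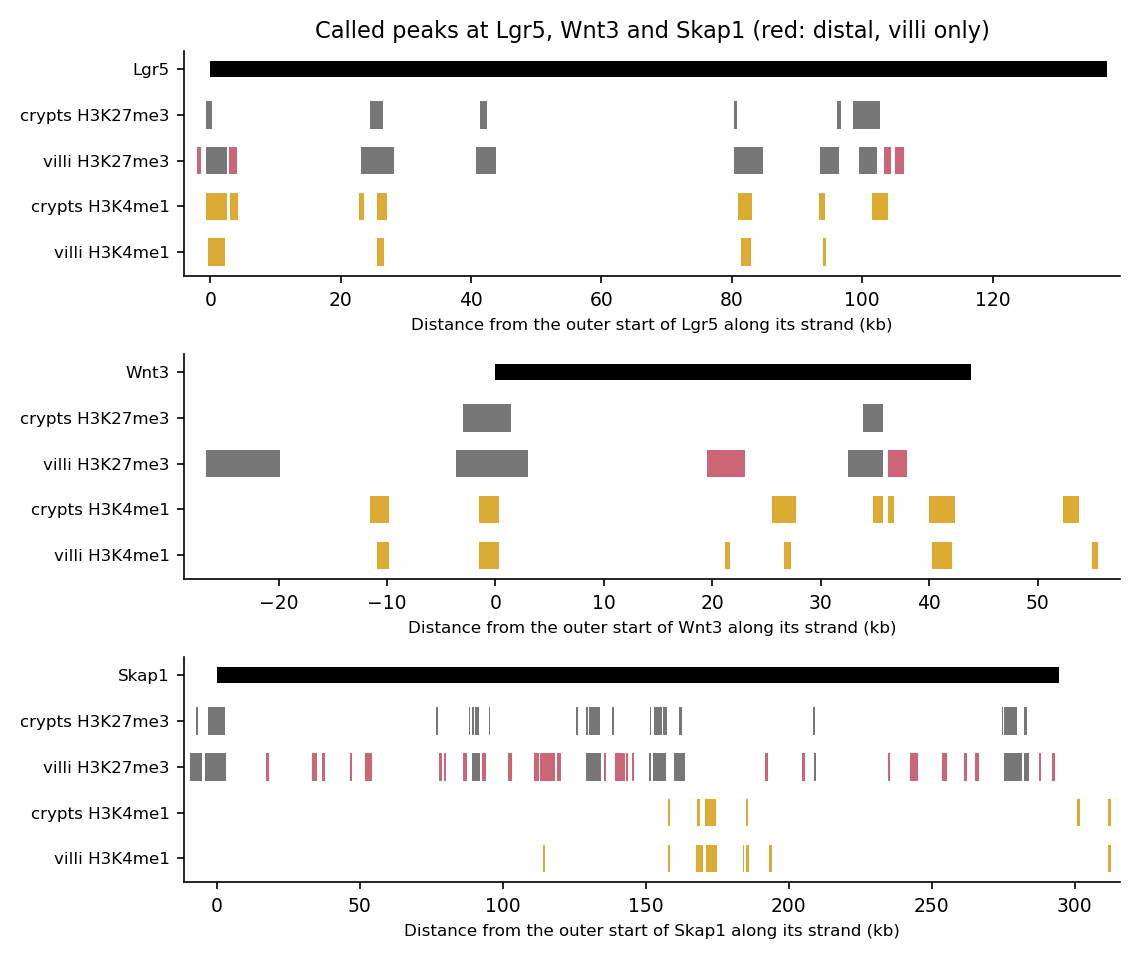
Called H3K27me3 and H3K4me1 peaks at Lgr5, Wnt3 and Skap1, drawn to scale against distance from the outer start of each gene (x axis, kb), with the gene as a black bar. Members are in red, other H3K27me3 peaks in grey and H3K4me1 peaks in yellow. Members lay between and beside the H3K27me3 peaks that crypts had too, 26 of them within Skap1.

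H3K4me3 was rarer still, on 105 members in crypts (1.59%, where 14.2% of all villi peaks had it) and on 96 in villi (1.45%, 14.4% of all). Of the 124 with H3K4me3 in either fraction, 116 also had H3K4me1 in either and 35 lay within 1 kb of the start site of some annotated transcript. Efna3, an ephrin ligand gene, held one of the 10 highest-scoring members, at 33.4, over an exon 1.16 kb from its start site, and carried H3K4me1 and H3K4me3 in both fractions. H3K9me3 lay on 20 members in crypts (0.303%, 0.471% of all) and 21 in villi (0.318%, 0.457% of all), 34 in either. Those 34 were rich in repeats, with a median of 35.8% of bases soft-masked against 15.0% of all members, and 6 of them lay in chr16:20954501-21142918, with Teddm3 as the closest coding gene. The H3K9me2 lists hold 6 peaks in crypts and 3 in villi and say nothing on the members. In all, 6065 members (91.9%) had no called peak of H3K4me1, H3K4me3 or H3K9me3 in either fraction, against 72.7% of the distal shared and 70.9% of all villi peaks.

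Of the members 40.02% (38.8 to 41.2%) overlapped a protein-coding gene, and coding genes cover 39.4% of the chromosomes. An exon was touched by 13.99%, and 26.0% were in introns alone. Among distal shared peaks 39.8% were in a coding gene and 20.9% touched an exon. The protein-coding start site closest to a member was 16.7 kb away at the median, with quartiles of 6.57 and 42.9 kb. Within 1 kb of the start of another annotated transcript lay 8.93%. Such transcripts belong to other gene types or are transcripts of coding genes not typed as protein-coding.

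Among the 10 highest-scoring members, the first was in Scn8a, a neuronal sodium channel gene, covering 1535 bp of an intron on chromosome 15 with a score of 36.1 and a crypts H3K27me3 peak 689 bp away. Pax7, the paired-box gene of muscle satellite cells, held a member of 7036 bp at 29.1, and Pou4f2, a gene of retinal ganglion cells, had one 7.98 kb away at 29.4. The others lay closest to Ift27, Gjc1, Cox7c, Lypd9, Trmt12 and Krt1, with scores from 28.8 to 33.7. Of the 10, H3K4me1 was called on the Efna3 member alone.

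Members were gathered in some genes. At least 1 lay in 1336 coding genes and 5 or more in 109. Gm20388 had 48 and Fgfr2, a fibroblast growth factor receptor, 24, but the annotation gives these spans of 4435 and 2961 kb that hold 73 and 30 other genes. Skap1, an adaptor gene of T cells next to the Hoxb cluster, held 26 members in 294 kb, and its H3K27me3 went from 18 peaks over 8.03% of its length in crypts to 35 over 23.1% in villi. Mdga1, a neuronal adhesion gene, held 18, with 24.4% of its length covered in crypts and 57.5% in villi. Pebp4 held 16 and had no H3K27me3 peak in crypts, against 17 over 10.9% of its length in villi. In Scn8a, with 14 members, coverage was 10.4% in crypts and 33.8% in villi. In Skap1, Mdga1 and Scn8a the members lay in genes where crypts had H3K27me3 too, and in Pebp4 crypts had none. Not every crypts peak was called again in villi. That at chr11:96541239-96541887 in Skap1, for example, had no villi peak over it.

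Within 10 kb of a member lay 2723 of 21951 coding genes (12.4%). These were long, with a median of 40.8 kb against 17.4 kb for all, and 66.2% of them had a crypts H3K27me3 peak within 10 kb too, against 20.8% of all coding genes. The counts for gene lists are read against that 12.4% and carry wide intervals.

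Of 22 genes of intestinal stem cells, 6 had a member within 10 kb (27.3%, 13.2 to 48.2%), 3 of them without a crypts H3K27me3 peak in that range. Tnfrsf19, a Wnt target and receptor gene, had a member of 2400 bp at 24.9, Msi1, an RNA-binding protein gene, had one of 534 bp at 23.2, and Ephb2, the receptor that positions cells along the crypt, had 3, the highest at 12.8. Slc12a2 and Olfm4 completed the list beside Lgr5. Of 45 genes of the Wnt pathway, which are ligands, receptors, antagonists and transcription factors, 13 had a member (28.9%, 17.7 to 43.4%), 12 of them with a crypts peak nearby. The highest were at Wnt3, at Rspo1, an R-spondin gene (18.6), at Fzd1 and near Lef1, a transcription factor gene of the pathway (18.4 in both).

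Of 29 genes of Notch signalling and secretory fate, 7 had a member (24.1%, 12.2 to 42.1%), among them Neurog3, the factor gene of enteroendocrine precursors (18.4), Jag2, a Notch ligand gene (17.5), and Spdef, a factor gene of goblet cells (16.6). Of 18 genes of Paneth, goblet and tuft cells 4 did (22.2%, 9.001 to 45.2%). The goblet cell genes Zg16 and Muc2 had 2 and 5 members, the highest at 27.3 and 15.2, and the others were Ptgs1 and Pou2f3. All 4 of these had a crypts H3K27me3 peak within 10 kb. Of 22 enterocyte genes only Slc15a1, the peptide transporter gene, had a member (4.55%, 0.807 to 21.8%), and of 20 proliferation genes only Cdkn1c, a cell cycle inhibitor gene (5.00%, 0.888 to 23.6%).

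Of 58 developmental transcription factor genes outside the Hox clusters, mostly homeobox and T-box genes, 27 had a member (46.6%, 34.3 to 59.2%), 25 of them with a crypts peak nearby. Pax7 had 6, Hand1, a heart factor gene, 1 at 27.7, Msx2 3 up to 20.3 and Lhx2 1 at 20.3, and Meis2 had the most, 9. Of 39 Hox genes, 2, Hoxb1 and Hoxd1, had a member (5.13%, 1.42 to 16.9%). All 39 had a crypts H3K27me3 peak within 10 kb and their median length was 3.49 kb. The rule asks for distance from start sites and no overlap with crypts peaks, and its part in this count was not tested. Of 54 neuronal channel, receptor and adhesion genes, whose median length was 326 kb, 19 did (35.2%, 23.8 to 48.5%), with 17 at Scn8a, 12 at Nrxn2, 8 at Cacna1g and 7 at Slit1.

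Of 20 lymphocyte genes, 7 had a member (35.0%, 18.1 to 56.7%). Cd3e, a subunit gene of the T cell receptor complex, had 5, up to 19.4, and no crypts H3K27me3 peak within 10 kb, and Cd4 had 3, up to 14.8. Cd3d and Cd3g, its neighbours, had 2 each, some of which lie within range of more than 1 of these genes. Runx3 and Tbx21, both factor genes of T cells, were also on the list. On the same list H3K4me3 lay at 5 start sites in crypts and 11 in villi and H3K27me3 at 4 and 8, and the part of lymphocytes in these H3K27me3 calls was not tested. Of 27 genes of mesenchyme and muscle 9 had a member (33.3%, 18.6 to 52.2%), with 8 at Gli2 and 2 at Gli1, both factor genes of Hedgehog signalling, up to 18.6 and 18.9. Pdgfrb, a receptor gene of fibroblasts and pericytes, had 3 and no crypts peak nearby, and the part of these cells was not tested either.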

How the data were processed

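The deposited files are peak lists of 10 ChIP-Rx libraries, 1 per fraction and modification; for the 2 inputs no file was used. With Bowtie 1.1.2 the authors mapped the reads to mouse (mm10) and fly (dm6), then dropped duplicates with samblaster and called peaks with MACS2 2.1.1. The deposited score was read as the authors' −log10 p-value, which depends on depth and ignores the spike-in, and it was used only to rank peaks within a list. The methods and the labels differ in the chromatin, antibody and beads stated.

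Overlaps, distances and sequence features were computed in Python 3.11.15 (pandas 2.3.3, NumPy 2.4.6, SciPy 1.17.1), and figures were drawn with Matplotlib 3.10.9. The interval code was tested on simulated peaks. Sequences, repeat masking and genes came from GRCm38 and GENCODE M21. Genes were named as those of the 10 highest-scoring members, the 10 highest with H3K4me1 in crypts only, those holding most members, those at the limits of the rule and up to 4 per gene list by score. Others were chosen after their values were seen: the genes of runs, the CpG-rich members, Teddm3, and list genes beyond 4. Members and lists were chosen with earlier results of these data known. No test between fractions was run, each being 1 library. The alternatives changed the overlap rule, merging, score, chromosomes, start sites, width and the overlap with H3K4me1. A sequence and a gene that these rules choose are not reported here.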

Additional observations from a re-analysis of the deposited data

How the results depend on the processing

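No paired analysis was possible because each fraction had 1 library per modification. The 7 values were recomputed under 9 alternatives and 1 added after the data were seen, H3K4me1 over the middle of the peak, which gave 62 values, of which 36 stayed within the Wilson interval or, for the number of members, within 1.5 times, and 26 moved; the cause was not tested.

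The number of members was 1468 with the upper 50% of the villi list and 1894 with lists of equal length. H3K4me1 in crypts was on 7.49% at 50% reciprocal overlap, 9.20% with the upper 50%, 8.92% with equal lists, 2.38% when it had to cover 50% of the peak and 2.76% at its middle. In villi these were 7.65, 9.81, 9.13, 2.15 and 2.47%. H3K4me1 was kept on 67.5% when it had to cover 50%.

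The share in a coding gene was 38.8% with peaks merged, 37.4% with the upper 50%, 38.4% with equal lists, 36.0% beyond 5 kb from start sites and 38.8% with start sites of all transcripts of any gene type. CpG-rich were 1.09% with the upper 50%, 0.9504% with equal lists and 0.466% with all start sites. Within 10 kb of a crypts peak lay 56.9% at 50% reciprocal overlap, 38.4% with peaks merged, 58.2% with the upper 50%, 56.5% with equal lists and 45.8% beyond 5 kb. Depth is unknown, and members near the score minimum of 10 are those most open to a change of calling.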
